A study of Mus musculus with 6 samples.

Results

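Protamines, transition proteins and testis histones of spermatocytes and spermatids were followed in whole testis of mice with and without the GIP receptor. The 9 genes are Prm1, Prm2, Prm3, Tnp1, Tnp2, Hils1, H1fnt, Hist1h1t and Hist1h2ba, and every non-control probe that carries one of these names on the array was taken, which gave 10 probes of 55681. Prm3 has 2 probes and each other gene has 1. Current symbols for H1fnt, Hist1h1t and Hist1h2ba are H1f7, H1f6 and H2bc1. Knockout mice (Gipr-/-, labelled GIPR KO) and wild-type mice (Gipr+/+) were both of strain C57BL/6 and 8 weeks old, with 3 mice and 3 arrays per genotype. Each p-value tests a difference between the genotypes and rests on these 6 arrays. The labels describe neither the targeted allele nor the tissues in which it is deleted, and no treatment is named for either genotype.

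In late spermatids the histones that wrap DNA are largely removed and replaced, first by transition proteins and then by protamines, short arginine-rich proteins that pack the sperm nucleus tightly. The genes for both are transcribed in round spermatids, and their mRNAs are stored and translated later. Earlier, in meiotic spermatocytes, testis versions of histone H1 and H2B enter the chromatin, and spermatids add linker histones of their own. Mice that lack a protamine gene make sperm with poorly condensed nuclei.

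Each value rests on a single 60-base oligonucleotide, so the first 30 bases of each probe are given to show which stretch of the transcript was read.
Prm1, A_52_P533280: ccacatcttgaaaaatgccaccgtccgatg
Prm2, A_51_P138705: aatagtcacctgcccaagcaacatcatgtg
Prm3, A_55_P2115435: tgtgagtcaagacaacttttccctgtcatc
Prm3, A_55_P2115437: ggcaatgggtgcccattgccacgccagagg
Tnp1, A_51_P151020: gcaattaccgatcccacttgtgatgcggca
Tnp2, A_55_P1976913: gaacatgtcactgcagcaatttctatgcaa
Hils1, A_52_P101990: gagtctgaaccatgccaattgctactaagc
H1fnt, A_51_P250001: tcagcctggggacactgagtctccttaatg
Hist1h1t, A_51_P312615: gaaggcagcagggaggaagtgagtttcaaa
Hist1h2ba, A_51_P180140: cgacaccggcatctcctccaaggccatgag
No other probe on the array had the sequence of one of these 10, and their GC content lay between 40% and 55%.

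On mouse build mm9, the build of the files, Tnp2 (chr16:10788029-10788088), Prm3 (chr16:10790601-10790660 and chr16:10790822-10790881), Prm2 (chr16:10791549-10791608) and Prm1 (chr16:10796450-10796509) are read by 5 probes within 8.48 kb, all on the minus strand. Tnp1 is read alone on chromosome 1 (chr1:73061834-73061893, minus strand). The Hils1 probe lies at chr11:94829603-94829662 (plus strand) and the H1fnt probe at chr15:98086469-98086528 (minus strand). Hist1h1t (chr13:23788343-23788402, plus strand) and Hist1h2ba (chr13:24025811-24025870, minus strand) are 237 kb apart in a cluster of histone genes. Exon boundaries on this build were not used here.

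Signals are Feature Extraction processed intensities, and values called log2 signal are the log2 of that intensity minus the 75th percentile of log2 intensity on the same array. Of the non-control spots, 70.6% to 76.0% per array were well above background and 0 were saturated. The Gipr probe read -2.26 ± 0.12 in knockout testes and 0.22 ± 0.19 in wild-type testes (log2 signal, SD, n = 3 each; limma adjusted p = 0.00195). All arrays were on 1 slide, with the knockout in slide row 1 and the wild type in row 2, and the effects of row and genotype cannot be told apart. Markers of testis were present: 6 of 6 round spermatid, 8 of 8 spermatocyte, 8 of 8 Sertoli cell and 6 of 6 Leydig cell markers passed the filter, against 2 of 7 epididymal markers (Rnase10 and Adam7). These counts are over markers matched on the array, and Insl3, also planned as a Leydig marker, was not among them.

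The protamine and transition protein probes were among the brightest on every array. Prm2 held place 1 on all 6 arrays, with a processed signal of 413153 to 442654. Tnp1 held place 2, or 3 in knockout replicate 1, and Prm1 places 4 to 8. Tnp2 followed at places 14 to 18, Hils1 at 75 to 102 and H1fnt at 106 to 150. The 2 Prm3 probes stood at places 194 to 286 and 387 to 524, while Hist1h1t (4275 to 5013) and Hist1h2ba (4675 to 5272) were within the brightest 10% of probes. A place depends on how well a probe hybridises as well as on the RNA, so it does not rank the transcripts by abundance. None of the 10 probes had a saturated pixel, and the highest mean spot signal, of Tnp1, was 56.1% of the scanner's saturation value.

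**Figure D1:**
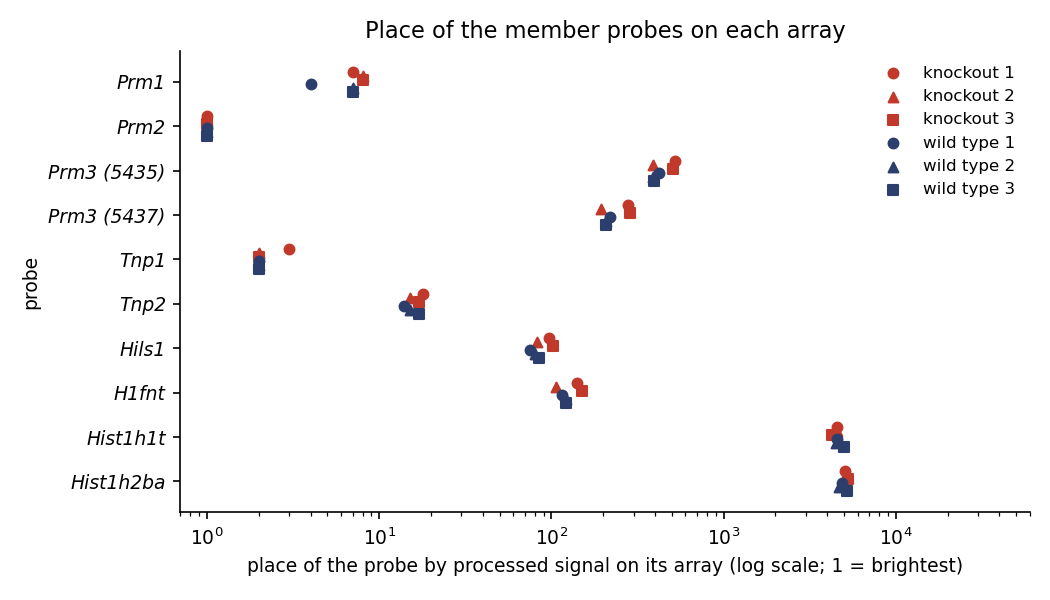
Place of each of the 10 probes by processed signal among the 55681 probes of its array (log axis, 1 is the brightest), for 3 knockout arrays (red) and 3 wild-type arrays (blue), with symbols marking the replicate. Prm2 is at place 1 on all 6 arrays, and the 2 histone probes of spermatocytes lie between places 4275 and 5272.

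These 10 probes, 0.0180% of those on the array, gave about 1% of its summed signal. For knockout replicates 1, 2 and 3 this share was 1.08%, 1.15% and 1.07%, and for the wild-type replicates it was 1.14%, 1.09% and 1.09%. The genotypes overlap: the mean was 1.10% ± 0.045 in knockout and 1.11% ± 0.028 in wild-type testes (SD, n = 3 each; exact permutation test, two-sided, p = 0.7, where the smallest possible p is 0.1). The small difference turned in sign without knockout replicate 1, knockout replicate 3 or wild-type replicate 1. In whole testis, fewer spermatids and less RNA per spermatid cannot be told apart.

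Of the 9 genes, the transition proteins had the smallest differences between genotypes. Tnp1 encodes the smaller, lysine- and arginine-rich transition protein. Its log2 signal was 8.97, 9.14 and 8.96 on knockout arrays 1, 2 and 3, and on the wild-type arrays 9.07, 9.0 and 8.98. Knockout replicate 2 was the highest array and knockout replicate 3 the lowest, so the wild-type values lay inside the knockout range. The difference was 0.0067 ± 0.07 (log2, knockout minus wild type, SE; 95% interval -0.17 to 0.18; limma adjusted p = 0.98). Tnp2, the larger, zinc-binding transition protein, read 8.48, 8.61 and 8.48 in knockout testes and 8.56, 8.51 and 8.49 in wild-type testes. It was likewise highest in knockout replicate 2 and lowest in knockout replicate 3, with a difference of 0.0028 ± 0.06 (95% interval -0.15 to 0.15; limma adjusted p = 0.992). For both genes the sign was not stable. It turned with quantile normalization, the authors' values and array weights, for Tnp2 also with normexp background correction, and without knockout replicate 2 or wild-type replicate 2 or 3.

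The protamines themselves differed by little more. Prm1, the protamine found in all mammalian sperm, read 8.84, 8.89 and 8.76 in knockout testes and 8.93, 8.83 and 8.82 in wild-type testes. Wild-type replicate 1 was highest and knockout replicate 3 lowest. The difference was -0.027 ± 0.07 (95% interval -0.19 to 0.13; limma adjusted p = 0.91). Prm2, which is made as a longer precursor and trimmed after it binds DNA, read 9.13, 9.24 and 9.07 in knockout testes against 9.22, 9.15 and 9.12 in wild-type testes. Its difference was -0.015 ± 0.07 (95% interval -0.18 to 0.15; limma adjusted p = 0.955). For both protamines the direction turned without knockout replicate 3 or wild-type replicate 1, and for Prm2 with normexp.

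Prm3 lies between Prm2 and Tnp2 but encodes an acidic protein of the spermatid cytoplasm, not a DNA-packing protein. Its brighter probe read 6.89, 7.24 and 6.86 in knockout testes and 7.11, 7.15 and 7.13 in wild-type testes. The dimmer probe gave 6.40, 6.77 and 6.39 against 6.67, 6.73 and 6.70. On both probes knockout replicates 1 and 3 were below every wild-type array and knockout replicate 2 above them all. The brighter probe differed by -0.13 ± 0.11 (95% interval -0.40 to 0.13; limma adjusted p = 0.737). In the fit of single probes the dimmer probe differed by -0.18 ± 0.11 (limma adjusted p = 0.698), where 0.0463% of probes passed and 7.67% had an unadjusted p under 0.05. Single arrays set the size: the brighter probe differed by -0.08 without knockout replicate 1, -0.26 without knockout replicate 2 and -0.06 without knockout replicate 3.

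Linker histones of spermatids placed the 3 knockout arrays in the same order as Prm3, an order that Prm1, Prm2, Tnp1 and Tnp2 share. Hils1 encodes a linker histone-like protein of elongating spermatid nuclei. It read 7.59, 7.79 and 7.53 in knockout testes and 7.79, 7.74 and 7.71 in wild-type testes, a difference of -0.11 ± 0.08 (95% interval -0.31 to 0.09; limma adjusted p = 0.717). H1fnt encodes H1T2, a linker histone that gathers at the apical pole of the spermatid nucleus. Its values were 7.35, 7.66 and 7.29 in knockout testes and 7.59, 7.57 and 7.54 in wild-type testes. The difference was -0.13 ± 0.11 (95% interval -0.38 to 0.12; limma adjusted p = 0.733). For both genes knockout replicates 1 and 3 were below every wild-type array, and knockout replicate 2 was the highest of all 6, for Hils1 only just above wild-type replicate 1. Without knockout replicate 2 the differences were -0.19 for Hils1 and -0.24 for H1fnt, and without knockout replicate 3 they were -0.06 for each. H1fnt was -0.09 without knockout replicate 1, and with quantile normalization Hils1 was -0.07 and H1fnt -0.08.

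The 2 histones that enter chromatin during meiosis did not follow the same order as each other (Pearson r = 0.02 over the 6 arrays). Hist1h1t, the testis linker histone H1t, read 3.24, 3.24 and 3.36 in knockout testes and 3.24, 3.28 and 3.03 in wild-type testes. Its highest array was knockout replicate 3 and its lowest wild-type replicate 3, and the difference was 0.10 ± 0.08 (95% interval -0.10 to 0.30; limma adjusted p = 0.744). The Hist1h1t difference was 0.06 without knockout replicate 3, 0.02 without wild-type replicate 3 and 0.03 with array weights. Hist1h2ba, the testis H2B variant TH2B, read 2.99, 2.98 and 2.88 in knockout testes and 3.1, 3.19 and 2.96 in wild-type testes. It was lowest in knockout replicate 3 and overlapped through wild-type replicate 3, with a difference of -0.13 ± 0.08 (95% interval -0.32 to 0.06; limma adjusted p = 0.693, the lowest of the 9), and of -0.08 without wild-type replicate 2. H2B genes are near-identical over much of their coding sequence, so how far this probe reads other H2B transcripts is uncertain.

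In all, 0 of the 9 genes passed the threshold of a limma adjusted p under 0.05, and 0 had an unadjusted p under 0.05. Over all 26924 genes tested, 0.0706% passed (0.0631% lower, 0.00743% higher) and 7.42% had an unadjusted p under 0.05. The genotypes overlapped for each of the 9 genes, while 13.0% of all genes had groups that do not overlap. In direction, 6 of the 9 genes were lower and 3 higher in the knockout, with a median of -0.027, beside a median of 0.0021 over all genes, of which 49.2% were lower. The precision was close to that of other genes: the SE was 0.06 to 0.11 (log2), with a median of 0.08, against a median of 0.09 over all genes. The 95% intervals, unadjusted and for each gene alone, reach a fall of 1.13-fold for Prm2, 1.12-fold for Tnp1 and 1.32-fold for Prm3, the widest. They reach a rise of 1.11-fold for Prm2, 1.13-fold for Tnp1 and 1.23-fold for Hist1h1t, the widest. Without knockout replicate 2, 3 genes had an unadjusted p under 0.05 (14.7% of all genes did in that fit), with limma adjusted p of 0.217 for Prm3, 0.229 for H1fnt and 0.285 for Hils1. Without wild-type replicate 3, 1 gene did, Hist1h2ba (limma adjusted p = 0.502), beside 9.73% of all genes.

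**Figure D2:**
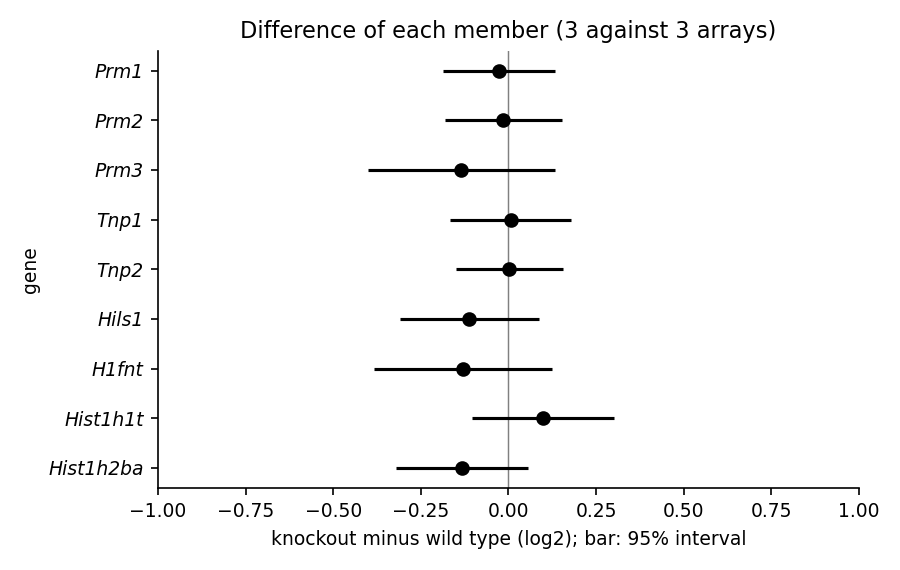
Difference between knockout and wild type for each of the 9 genes (log2, knockout minus wild type, dots) with its 95% interval from limma (bars), 3 arrays against 3. All 9 intervals include 0, and those of Prm1, Prm2, Tnp1 and Tnp2 stay between -0.19 and 0.18.

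Across animals, the 7 genes of spermatids (all but Hist1h1t and Hist1h2ba) varied together. In log2 signal, knockout replicate 3 was the lowest array for 7 of the 7. Knockout replicate 2 was the highest for 6 of them, with Prm1 the exception. Before scaling to the 75th percentile this order held only in part. In processed signal Prm2 and Hils1 were highest in wild-type replicate 1 (442654 and 163425, against 435142 and 158836 in knockout replicate 2). Tnp2 was highest in knockout replicate 1 (281663 against 280676), while Tnp1, H1fnt and the brighter Prm3 probe kept knockout replicate 2. Tnp1 and Tnp2 were lowest in wild-type replicate 2. After scaling, the step from knockout replicate 3 to knockout replicate 2 was 0.13 to 0.38 (log2). The range over the 3 wild-type arrays was 0.04 to 0.12. Over the 6 arrays the correlation between members had a median of 0.80 over the 21 pairs (0.58 to 0.998), as a description, since all genes share the arrays and their scaling. In the 15 pairs that include Hist1h1t or Hist1h2ba it was -0.42 to 0.62, highest for Hist1h2ba with Hils1. Hist1h2ba too was lowest in knockout replicate 3, and only Hist1h1t was not. The dimmer spermatid members spread most among knockout animals: the SD was 0.21 for Prm3, 0.20 for H1fnt and 0.14 for Hils1 in the knockout, against 0.02, 0.03 and 0.04 in the wild type. For Prm1, Prm2, Tnp1 and Tnp2 it was 0.07 to 0.10 in the knockout and 0.03 to 0.06 in the wild type. None of the 10 probes has a repeat spot. For 51 other probes at least as bright as the dimmest member and printed 2 to 10 times, the median SD between repeat spots of an array was 0.04. Repeat spots show only the spread within an array. Each animal was read on 1 array, so the spread between animals and between arrays cannot be told apart.

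Markers of other cell types differed between the same arrays. With every gene centred on its own average, the 7 spermatid members had a median of -0.05, 0.10 and -0.09 for knockout replicates 1, 2 and 3, and of 0.07, -0.0048 and -0.03 for the wild-type replicates (log2). In the same order, 19 other genes of elongating spermatids gave -0.10, 0.09 and -0.23, then 0.04, 0.08 and 0.06. The 6 Leydig cell markers, 6 of 6 of them lower in the knockout and 1 with an unadjusted p under 0.05, gave -0.10, 0.12 and -0.83, then 0.09, 0.41 and 0.30, and their summed level was 13.9 to 26.1 in the knockout and 25.6 to 30.6 in the wild type (signal relative to the 75th percentile). Insl3 was not among these Leydig markers. The 8 Sertoli cell markers, 5 of them higher and 3 of the 8 with an unadjusted p under 0.05, were highest in knockout replicate 3, at 0.17, with a summed level of 309 to 323 in the knockout and 294 to 297 in the wild type. Of these 3, Amh was dim (log2 signal -6.86 to -5.41) and well above background on 3 of the 6 arrays, so it passed the filter through 1 genotype. The 5 peritubular myoid cell markers, 5 of 5 of them higher in the knockout and 1 with an unadjusted p under 0.05, gave 0.12, -0.11 and 0.17, then -0.02, -0.09 and -0.08, with a summed level of 14.6 to 17.7 in the knockout and 15.2 to 15.9 in the wild type. Beside these counts, 7.42% of all genes had an unadjusted p under 0.05 and 49.2% were lower in the knockout. The 6 round spermatid markers, 3 lower and 3 higher, gave -0.06, 0.01 and -0.10, then 0.08, 0.15 and -0.07, with a summed level of 276 to 294 in the knockout and 270 to 305 in the wild type. The 8 spermatocyte markers, 2 lower and 6 higher, gave 0.01, -0.04 and 0.10, then 0.02, -0.0040 and -0.07. Their summed level was 281 to 307 in the knockout and 280 to 304 in the wild type. The 7 spermatogonial markers, 4 lower and 3 higher, gave -0.13, -0.06 and 0.16, then 0.0096, -0.03 and 0.04. The 2 blood genes, 1 lower and 1 higher, gave 0.42, -0.24 and 0.19, then -0.42, -0.08 and 0.13, with a summed level of 6.01 to 10.97 in the knockout and 5.26 to 7.79 in the wild type. Over the 6 arrays, the correlation with the members' median profile was 0.83 for the elongating spermatid genes, 0.77 for round spermatid, 0.67 for Leydig, -0.46 for Sertoli, -0.79 for myoid and -0.85 for blood markers. It was -0.49 for spermatocyte, -0.47 for spermatogonial and 0.48 for macrophage markers, all as a description on shared arrays. Their part in the members' values was not tested.

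**Figure D3:**
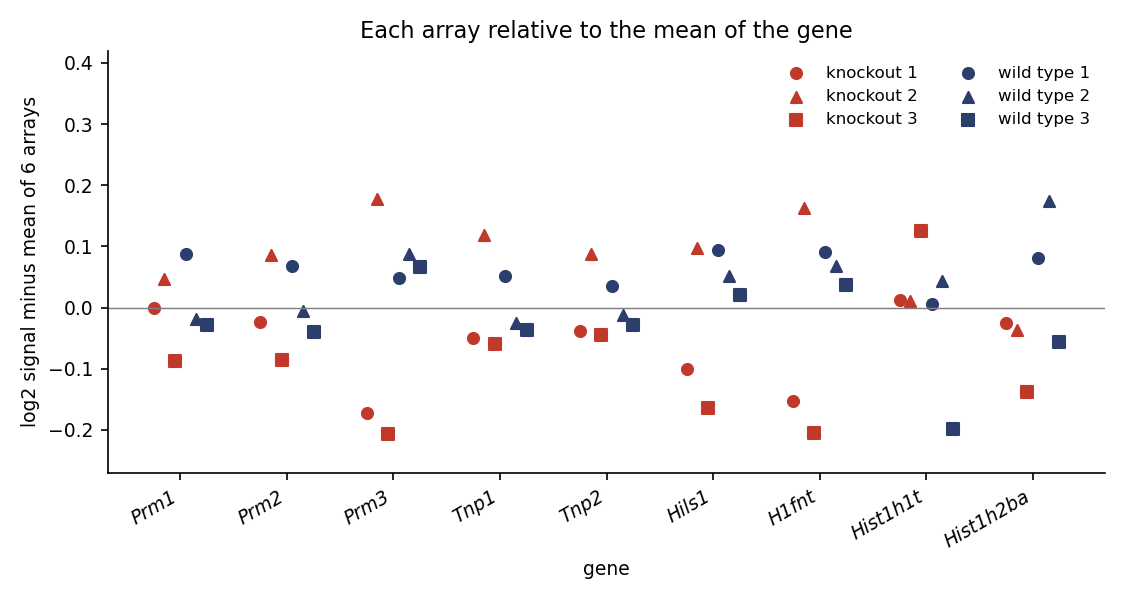
Log2 signal of each of the 9 genes on each array after centring each gene on its average, for knockout (red) and wild type (blue), with symbols marking replicates 1, 2 and 3. For the 7 spermatid genes from Prm1 to H1fnt the red triangles (knockout replicate 2) stand 0.13 to 0.38 above the red squares (knockout replicate 3), and Hist1h1t has the opposite order.

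The 100 bases before the RefSeq start of the 4 brightest genes and of Prm3 are shown (GRCm38.p6). Capitals mark matches to TGANNTCA, a relaxed form of the cAMP response element TGACGTCA that CREM binds in spermatids, and to the TATA-like letters TATAA and TATATA, searched on both strands and overlapping in Prm2 and Tnp2.
Prm1, chr16:10796824-10796923, minus strand: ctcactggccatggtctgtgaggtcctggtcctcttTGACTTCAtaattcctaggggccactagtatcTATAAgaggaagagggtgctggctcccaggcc
Prm2, chr16:10792106-10792205, minus strand: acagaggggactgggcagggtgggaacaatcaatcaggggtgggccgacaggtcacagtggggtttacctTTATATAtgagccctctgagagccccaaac
Tnp1, chr1:73015900-73015999, minus strand: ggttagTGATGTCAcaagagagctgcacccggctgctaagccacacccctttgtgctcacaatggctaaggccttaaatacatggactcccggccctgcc
Tnp2, chr16:10788656-10788755, minus strand: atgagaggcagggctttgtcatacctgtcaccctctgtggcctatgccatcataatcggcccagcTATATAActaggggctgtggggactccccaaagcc
Prm3, chr16:10790915-10791014, minus strand: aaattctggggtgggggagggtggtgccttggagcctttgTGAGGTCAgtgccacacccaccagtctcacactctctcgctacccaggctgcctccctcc
The TGANNTCA match begins 64 bases before the start in Prm1, 94 in Tnp1 and 60 in Prm3. In Hils1 it begins 7 bases before the start and runs past it, and H1fnt has none. Within 100 bases, 3 of the 9 genes hold it, against 6.34% of the 32851 promoter windows of the same length. TATAA was found within 100 bases in 5 of the 9, at 32 bases before the start of Prm1 and 33 of Tnp2, against 10.2% of all windows. In Hist1h2ba it began 94 bases before the start, and in Prm2 it lay on the opposite strand only. TATATA was in 3 of the 9, against 2.19%. The full TGACGTCA was in 0 of the 9 full promoter windows of the table and in 1.79% of all. A match is a description of letters and was not tested for binding or for a part in the members' shared variation. Because the motifs were chosen after these promoters were read, the shares cannot show an excess over other promoters.

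Between members on the same array, where the array's scale cancels, 4 differences were compared between genotypes. Prm2 minus Prm1 was 0.32 ± 0.03 in knockout testes and 0.30 ± 0.02 in wild-type testes (log2, SD, n = 3 each; exact permutation test, p = 0.7). Tnp2 minus Tnp1 was -0.50 ± 0.025 and -0.50 ± 0.015 (exact p = 0.9). Tnp1 minus Prm1 was 0.19 ± 0.06 and 0.16 ± 0.02 (exact p = 0.5). The means of these 3 differed by 0.034 or less between genotypes. Hist1h2ba minus Hist1h1t was -0.25, -0.26 and -0.47 on knockout arrays 1, 2 and 3, and on the wild-type arrays -0.14, -0.08 and -0.07. Every knockout value was below every wild-type value, by -0.23 on average (exact permutation p = 0.1, the smallest possible, and 0.4 adjusted over the 4 comparisons), so the difference did not pass, and its size was -0.16 without knockout replicate 3.

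Genes that switch on protamine transcription or hold its mRNA for later use did not pass either. Of 16 such genes, 0 passed over all genes in limma, 8 were lower and 8 higher, with a median of -0.0031. Fhl5, the coactivator ACT that works with CREM, read -0.26 ± 0.11 (log2 difference, SE; limma adjusted p = 0.662). Zmynd15, a repressor of haploid genes, read -0.10 ± 0.08 and Ybx3, a DNA- and RNA-binding protein of germ cells, 0.08 ± 0.07 (limma adjusted p = 0.741 and 0.731). Leaving out 1 array moved Zmynd15 to between -0.18 (without knockout replicate 2) and -0.05 (without knockout replicate 1), and Ybx3 to 0.05 without knockout replicate 2 and 0.04 without wild-type replicate 3.

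Enzymes and factors that modify and remove histones were higher more often than lower. Of 30 genes 0 passed in limma, 10 were lower and 20 higher, with a median of 0.04, and 1 had an unadjusted p under 0.05. Beside these counts, 49.2% of all genes were lower and 7.42% had an unadjusted p under 0.05. The 1 gene was Brwd1, a bromodomain protein needed for spermatid maturation, with -0.09 ± 0.01 in knockout testes and -0.23 ± 0.05 in wild-type testes (log2 signal, SD, n = 3 each; limma adjusted p = 0.662). The acetyltransferase Ep300 differed by 0.22 ± 0.10 and Rnf8, a ubiquitin ligase that marks histones, by 0.16 ± 0.08 (log2, SE; limma adjusted p = 0.662 and 0.68). Ep300 was 0.13 without knockout replicate 1, and Rnf8 0.09 without knockout replicate 3.

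Other histones and histone variants gave no call. Of 20 on the array 19 passed the filter, all but H1f3, and 0 of the 19 passed in limma, with 9 lower, 10 higher and a median of 0.02. The replacement linker histone H1f0 read -0.27 ± 0.14, the linker histone H1f2 -0.22 ± 0.13 and H1f10, the linker histone H1X, 0.09 ± 0.05 (log2 difference, SE; limma adjusted p = 0.679, 0.697 and 0.693). Without knockout replicate 3, H1f0 was -0.11 and H1f2 -0.07. H1f2 was -0.33 without knockout replicate 2, and H1f0 was -0.06 with normexp. The H1f0 probe was dim (log2 signal -5.83 to -5.21), though well above background on all 6 arrays. H1f2 has close relatives in the same cluster, and its probe may read them too.

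Genes for the sperm tail and head of elongating spermatids were lower for 18 of 19, with a median of -0.12, and 0 passed in limma. Of all genes, 49.2% were lower. With every gene centred on its average, the list's median was -0.10, 0.09 and -0.23 on knockout arrays 1, 2 and 3. It was 0.04, 0.08 and 0.06 on the wild-type arrays, so knockout replicate 2 was not low. The 19 genes share these arrays and are not independent observations. Odf1, an outer dense fibre protein of the tail, read 5.24 ± 0.21 in knockout testes and 5.55 ± 0.035 in wild-type testes (log2 signal, SD, n = 3 each; limma adjusted p = 0.662). It was the only 1 of the 19 with an unadjusted p under 0.05, beside 7.42% of all genes. Oaz3, the antizyme of spermatids, differed by -0.26 ± 0.11 and Cylc2, a cytoskeletal protein of the sperm head, by -0.19 ± 0.09 (log2, SE; limma adjusted p = 0.662 each). Without knockout replicate 3 the differences were -0.20 for Odf1, -0.14 for Oaz3 and -0.13 for Cylc2. Whether these genes differ from the protamines in their shift was not tested.

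**Figure D4:**
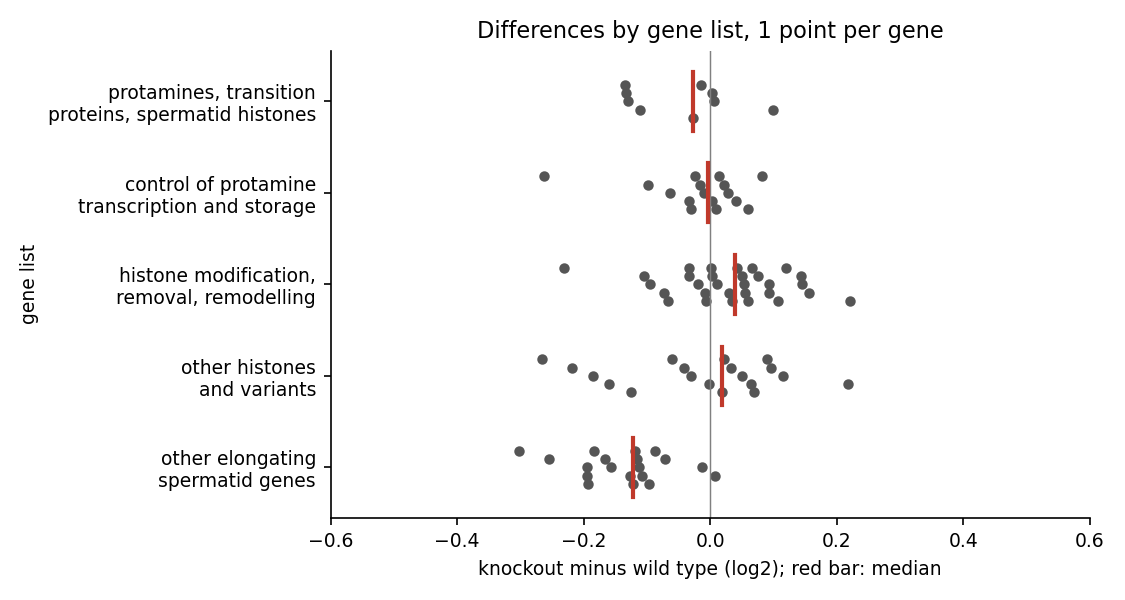
Difference between knockout and wild type (log2, knockout minus wild type) for each gene of 5 lists, 1 point per gene, with the median as a red bar. The medians are -0.027 for the 9 members, -0.0031, 0.04 and 0.02 for the lists of control, histone removal and other histones, and -0.12 for 19 other elongating spermatid genes.

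Around the members, 31 other tested genes had a probe within 100 kb, and 0 of them passed in limma (lowest adjusted p = 0.662, and 0 with an unadjusted p under 0.05). Next to the chromosome 16 cluster, Socs1, an inhibitor of cytokine signalling, lay 4.08 kb from Tnp2 and differed by -0.04 ± 0.06 (log2, SE). An unnamed transcript 5.15 kb from Prm1 differed by 0.02 ± 0.05, Clec16a, at 43.3 kb, by -0.04 ± 0.07 and Rmi2, at 89.7 kb, by -0.0091 ± 0.13. Near Tnp1, 1700027A15Rik lay 10.2 kb away, at place 396 or brighter on each array, with -0.22 ± 0.12, and an unnamed transcript lay 78.3 kb away. H2ac1, which encodes the testis H2A variant and lies 0.657 kb from Hist1h2ba, differed by 0.02 ± 0.09. Scgn, Slc17a1, Slc17a3 and Carmil1 also neighbour Hist1h2ba, with -0.27 to -0.18. The 10 nearest Hist1h1t were H4c3, H2bc4, Hfe, H1f2, H3c3, H2bc3, H2ac4, 4930558J22Rik, H3c1 and H1f1, with -0.28 to 0.16. Hils1 had Sgca, Col1a1, Ppp1r9b, Samd14, Pdk2 and Itga3, with -0.02 to 0.31, and H1fnt had Olfr285 and Ccdc184, at -0.35 and 0.14. The Olfr285 difference had an SE of 0.48. Its probe was dim (mean log2 signal -5.74 in knockout and -5.39 in wild-type testes) and well above background on 5 of the 6 arrays.

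Among 8427 other named genes that were well above background on all 6 arrays and ranged over at least 0.3 (log2), 5 had the profile most like the median of the 9 members. They were Spata21, a testis gene (Pearson r = 0.978 over the 6 arrays), Gm21953 (0.975), Cylc1, a cytoskeletal protein of the sperm head (0.973), Itprip (0.968) and Gm12171 (0.965). Spata21 read 7.77, 8.05 and 7.70 on knockout arrays 1, 2 and 3, and on the wild-type arrays 8.05, 8.03 and 7.86, so knockout replicates 1 and 3 were lowest there too. These values are a description over 6 arrays that share their scaling. None of the 5 passed in limma (adjusted p = 0.716 to 0.924).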

How the data were processed

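Testis RNA of 6 mice was measured on 1-colour Agilent arrays (design 028005). The labels' protocols give 100 ng of RNA as the input of the Cy3 labelling. Per the file headers and the submitters' processing notes, the authors' deposited intensity values are linear processed signals, background-corrected and detrended in Agilent Feature Extraction 10.7.3.1. The deposited value table was that signal times 1 factor per array (100% of entries within 1%) and served as an alternative.

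Here, outlier spots were left out (117 to 149 per array), log2 signals were averaged over a probe's spots and set relative to their array's 75th percentile. A probe was tested when every array of 1 genotype or both had it well above background (38871 probes). A gene was its brightest tested probe (26924 genes). Names were updated through RefSeq (GRCm38.p6 table): 26762 probes matched by accession, 3819 by symbol and 639 by older symbol, and 24461 kept the file's name. Genotypes were compared with limma 3.58.1 (R 4.3.3; lmFit, eBayes), two-sided, with Benjamini-Hochberg adjustment over all genes and a threshold of 0.05. Single values were compared by exact permutation tests. The limma script was tested on simulated data.

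The members and gene lists were chosen with earlier results of these data known. The motifs were chosen after the promoter sequences were read. Named genes are the 9 members, the 3 genes of lowest p in each list of related genes, genes within 100 kb (up to the 10 nearest per member) and the 5 most alike profiles. Sequences are from the array files (probes) and RefSeq (promoters, matched for 9 of 9 genes). Intervals rest on 3 arrays per genotype, whose number limits the precision.

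Titles give both genotypes replicate numbers 1 to 3, which are also the slide columns. Deviations from the genotype means did not pair by number (correlations 0.05, -0.05 and -0.03), so the block was an alternative only.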

Additional observations from a re-analysis of the deposited data

How the results depend on the processing

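Under the 16 alternatives 0 members passed. Over the 15 that test genes, the adjusted p (limma) stayed at 0.217 or higher and the members' median difference was -0.062 to 0.0099; over their 10 single probes it was -0.069. Prm3, Hils1, H1fnt and Hist1h2ba stayed lower and Hist1h1t higher in these 15, but their sizes moved: leaving out 1 array gave -0.26 to -0.065 for Prm3, -0.19 to -0.057 for Hils1, -0.24 to -0.060 for H1fnt, -0.19 to -0.079 for Hist1h2ba and 0.025 to 0.146 for Hist1h1t. Signs near 0 turned: with normexp Prm2 was 0.014 and Tnp2 -0.0080; with quantile normalization Tnp1 was -0.013 and Tnp2 -0.019, while Prm2, the brightest probe on every array, is 0 by construction; with the authors' deposited values Tnp1 was -0.0021 and Tnp2 -0.0061; with array weights -0.015 and -0.016. Leaving out 1 array gave -0.057 to 0.0099 for Prm1, -0.062 to 0.024 for Prm2, -0.051 to 0.038 for Tnp1 and -0.041 to 0.026 for Tnp2. It gave -0.033 to 0.0090 percentage points for the share of signal, -0.0048 to 0.026 for Prm2 minus Prm1 and -0.013 to 0.010 for Tnp2 minus Tnp1. The 12 named list genes kept their direction and 0 passed, in all 180 values, while sizes moved by over 1.5 times for several; of these, quantile normalization gave 0.13 for Ybx3 and -0.059 for Zmynd15, normexp 0.15 for Ep300, the mean of a gene's probes 0.087 for Brwd1 and array weights -0.17 for H1f0, 0.070 for Rnf8 and 0.033 for Ybx3. The count over all genes was 19, and 29 with normexp, 34 with trend and robust, 30 with array weights, 7 when dim probes were kept and 5 to 24 when 1 array was left out. With the replicate block it was 5, and 0 members passed; 1 of 3 knockout arrays correlated best with its own number. The cause of these changes was not tested.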
